A study of Homo sapiens with 8 samples.

Results

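The 4 libraries titled rep 2 were set against the 4 titled rep 1, so all 8 libraries of the study entered the comparison, 4 in each arm. Each library was made from U937, a monocytic line of human origin. SLC19A1, a carrier of folates and cyclic dinucleotides, had been knocked out in all of them. A tet-inducible, Flag-tagged SLC7A2 or SLC7A1, both transporters of arginine and lysine, had been added, and each line was sampled after 24 h in 1 µg/mL doxycycline (dox) and without dox. This gave 4 groups, with 1 library of each number in each group: the SLC7A2 line with dox, the SLC7A2 line without dox, the SLC7A1 line with dox and the SLC7A1 line without dox. A line without a construct and given dox was not among the samples. The labels do not say what a replicate number shares (a day, a passage, a culture), nor whether a line is 1 clone. The p-values therefore rest on a spread between libraries that may be only technical.

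Cultured cells of 1 line can differ between samplings in growth, stress and differentiation state, and each state has well-known marker programs. Heat shock factor 1 drives chaperone genes such as HSPA8 and HSPH1 when proteins are misfolded. The transcription factor ATF4 drives ATF5, DDIT3 and CHAC1 when amino acids are short or proteins fail to fold, and SREBP factors drive sterol synthesis genes when sterols are low. In myeloid cells IRF8 directs monocyte fate, neutrophil granule proteases such as ELANE mark the early myeloid stage, and CCL2 and MMP9 are products of activated monocytes.

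Promoters of 5 genes are shown, picked by hand among the many genes whose levels had the same direction in all 4 groups. Each of the 5 holds the motif marked in it, so they do not show how common a motif is among such genes. The windows are the 250 bases before the RefSeq start on build GRCh38.p14, written from 5′ to 3′ on the strand of the gene. Capitals mark matches to a heat shock element of 3 units (GAA and TTC in alternation, with 2 bases between units) in HSPA8 and CHORDC1, and to its form of 2 units (GAANNTTC or TTCNNGAA) in HSPA1A. They mark an ATF4-type element (TGATGNAAN) in CHAC1 and the CArG box, the core of the serum response element, in EGR1. Both strands were searched, and the shorter heat shock form lies within the longer one.
HSPA8, chr11:123062137-123062386 (- strand): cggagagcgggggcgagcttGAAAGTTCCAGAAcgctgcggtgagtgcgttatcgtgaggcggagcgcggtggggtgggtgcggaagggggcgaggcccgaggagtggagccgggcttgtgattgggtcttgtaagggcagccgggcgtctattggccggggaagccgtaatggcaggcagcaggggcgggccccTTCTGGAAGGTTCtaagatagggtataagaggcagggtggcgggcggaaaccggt
CHORDC1, chr11:90223050-90223299 (- strand): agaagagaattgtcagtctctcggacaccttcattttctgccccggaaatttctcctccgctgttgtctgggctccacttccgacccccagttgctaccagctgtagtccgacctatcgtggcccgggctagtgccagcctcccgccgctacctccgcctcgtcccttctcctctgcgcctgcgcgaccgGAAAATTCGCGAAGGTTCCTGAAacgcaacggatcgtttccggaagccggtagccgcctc
HSPA1A, chr6:31815293-31815542 (+ strand): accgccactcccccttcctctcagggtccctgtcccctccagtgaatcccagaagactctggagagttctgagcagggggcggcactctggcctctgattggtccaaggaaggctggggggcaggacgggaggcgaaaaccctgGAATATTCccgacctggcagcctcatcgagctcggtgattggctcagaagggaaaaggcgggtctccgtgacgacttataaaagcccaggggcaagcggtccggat
CHAC1, chr15:40953221-40953470 (+ strand): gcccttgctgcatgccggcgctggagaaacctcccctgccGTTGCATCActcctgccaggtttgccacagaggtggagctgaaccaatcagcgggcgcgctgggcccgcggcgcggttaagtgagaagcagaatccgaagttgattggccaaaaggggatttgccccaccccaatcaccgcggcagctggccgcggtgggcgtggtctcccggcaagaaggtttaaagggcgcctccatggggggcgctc
EGR1, chr5:138465229-138465478 (+ strand): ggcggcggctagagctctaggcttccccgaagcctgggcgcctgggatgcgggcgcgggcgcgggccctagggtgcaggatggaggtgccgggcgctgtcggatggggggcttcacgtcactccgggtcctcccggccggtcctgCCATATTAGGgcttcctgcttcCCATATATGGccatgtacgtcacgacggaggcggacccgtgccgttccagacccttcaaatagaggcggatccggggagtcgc

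HSPA8 held 2 matches to the longer heat shock element, starting 230 and 55 bases before the start, and CHORDC1 held 3 overlapping matches between 60 and 50 bases before it. The longer element was found in 0.439% of 27305 promoters of the same length and in 3 of the 24 promoters matched from the heat shock and chaperonin list (CHORDC1, DNAJB6 and HSPA8). The shorter form was found in 11.7% of all promoters and in 8 of those 24. HSPH1 and HSP90AA1, which had the same direction in all 4 groups, were not among the genes with a match to either form. The ATF4-type element was found in 3.18% of promoters and in 4 of 27 promoters of the ATF4 list, and the CArG box in 1.14% of promoters and in 2 of 26 promoters of the immediate early list (EGR1 and SRF). EGR1 held 2 CArG matches, 105 and 83 bases before the start. A match describes letters in this window and not a bound site.

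Each library held 17309132 to 18441833 expected counts, and 17503 entries passed the filter on low counts: 11573 Entrez genes, 5927 unnamed XLOC loci and 3 construct entries. Of the markers of the myeloid lineage, SPI1 (139 to 174 TPM, a level scaled by gene length and library, over the 8 libraries), LYZ (135 to 275 TPM), CD33 (81.1 to 94.3 TPM) and CD68 (50.7 to 69.8 TPM) were present in every library. CD14 (at most 0.19 TPM), CSF1R (at most 0.53 TPM) and MPO (at most 0.47 TPM) were near 0. HBB, CD3E and MS4A1 were at 0 in every library. The 12 fibroblast markers summed to 10.1, 101, 5.26 and 6.55 CPM in the number 2 libraries (CPM, a gene's count scaled to a fixed library total; within each number the values here and below run from the SLC7A2 line with dox and without dox to the SLC7A1 line with dox and without dox), against 5.80, 13.9, 13.2 and 6.53 CPM in the number 1 libraries. The number 2 library of the SLC7A2 line without dox thus stood apart, at 24.5 CPM of COL1A1. SLC19A1, the knocked-out gene, had 124, 160, 124 and 126 CPM in the number 2 libraries, against 139, 136, 132 and 153 CPM in the number 1 libraries, so its message was still present in every library. SLC7A2-Flag had 4670 and 9.46 CPM in the number 2 libraries of its line with and without dox, against 265 and 0.57 CPM in the number 1 libraries. It rose in number 2 (log2 fold change 4.13 ± 0.11 SE, adjusted p = 0.0337, edgeR quasi-likelihood test with Benjamini-Hochberg adjustment). SLC7A1-Flag had 378 CPM in number 2 of its line with dox, against 840 CPM in number 1, and did not pass (adjusted p = 0.116, edgeR).

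Over all 4 groups, chaperone and proteasome genes lay mostly above 0 and ribosomal protein genes below 0 in number 2 relative to number 1, but few single genes passed the test. Only EIF3CL, a copy of the translation initiation subunit gene EIF3C, passed the test over all 17503 entries. Calls were 0 higher (0% of entries) and 1 lower (0.00571%) in edgeR's quasi-likelihood test, which had 3 residual degrees of freedom, while 3374 entries had an unadjusted p below 0.05. When the fit and the adjustment were restricted to the 11573 Entrez genes, 11 genes were higher (0.095%) and 6 lower (0.0518%) in number 2. DESeq2 called 584 higher and 523 lower. EIF3CL had 53.5, 60.4, 74.1 and 63.0 CPM in the number 2 libraries, against 160, 169, 170 and 173 CPM in the number 1 libraries. The numbers did not overlap, and the log2 fold change was -1.43 ± 0.09 SE (adjusted p = 0.0449, edgeR). Of the 11573 Entrez genes, 644 lay lower and 782 higher in number 2 without overlap. EIF3C, a near-identical copy on whose reads the counting can draw, had 829 to 965 CPM in number 2 and 848 to 945 CPM in number 1. With the counts of both copies summed, an alternative chosen after seeing the data, no entry was called. EIF3CL also lost its call when any 1 of the 6 libraries other than the SLC7A1 dox pair was left out, with adjusted p of 0.154 to 0.261.

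Heat shock proteins and chaperonin subunits, which fold other proteins, stood above 0 in 26 of the 27 members tested, with a median log2 fold change of 0.38, against 0.02 over all Entrez genes. In each of the 4 groups number 2 exceeded number 1 for 23 of 27 members, where 18.2% of Entrez genes did so. The median was 0.34 and 0.43 in the SLC7A2 line with and without dox, and 0.44 and 0.33 in the SLC7A1 line. In the fit over Entrez genes 5 members were called higher for both lines together (0.095% of all Entrez genes were), 14 in the SLC7A2 line (7.81% of all) and 12 in the SLC7A1 line (1.96% of all). HSF1, the transcription factor of the program, was the 1 member below 0 (log2 fold change -0.26 ± 0.09 SE).

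HSPA8, the constitutive cytosolic Hsp70, had 2423, 2843, 1137 and 1025 CPM in the number 2 libraries, against 1236, 1287, 456 and 524 CPM in the number 1 libraries. Every pair was higher in number 2, although the number 1 libraries of the SLC7A2 line exceeded the number 2 libraries of the SLC7A1 line. The log2 fold change was 1.10 ± 0.08 SE, with an adjusted p of 0.0553 over all entries and 0.0135 over Entrez genes, within a range of 5.23e-36 to 0.273 over 11 alternatives. HSPH1, the Hsp110 nucleotide exchange factor that restarts Hsp70, had 169, 136, 59.3 and 65.9 CPM in the number 2 libraries, against 68.8, 64.0, 30.8 and 25.1 CPM in the number 1 libraries. Its log2 fold change was 1.18 ± 0.10 SE (adjusted p = 0.0657 over all entries, and from 1.53e-20 to 0.369 over alternatives). HSPA1A, the stress-inducible Hsp70, had 68.5, 65.3, 34.4 and 29.9 CPM in the number 2 libraries, against 36.8, 36.4, 19.8 and 14.8 CPM in the number 1 libraries. HSPA1A and HSPA1B (log2 fold changes of 0.89 and 0.81) are near-identical copies, so the split between them is uncertain. CHORDC1, an Hsp90 co-chaperone, had 42.7, 31.0, 13.4 and 13.8 CPM in the number 2 libraries, against 14.2, 14.8, 7.46 and 8.11 CPM in the number 1 libraries. Within each line the numbers did not overlap for HSPA8, HSPH1, HSPA1A or CHORDC1, but with so few libraries per line this only describes these genes. Its share over all genes was not taken. Other members with the same direction were HSP90AA1 (cytosolic Hsp90, log2 fold change 0.72), DNAJA1 (an Hsp40, 0.84) and HSPD1 (the mitochondrial chaperonin, 0.55).

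**Figure D1:**
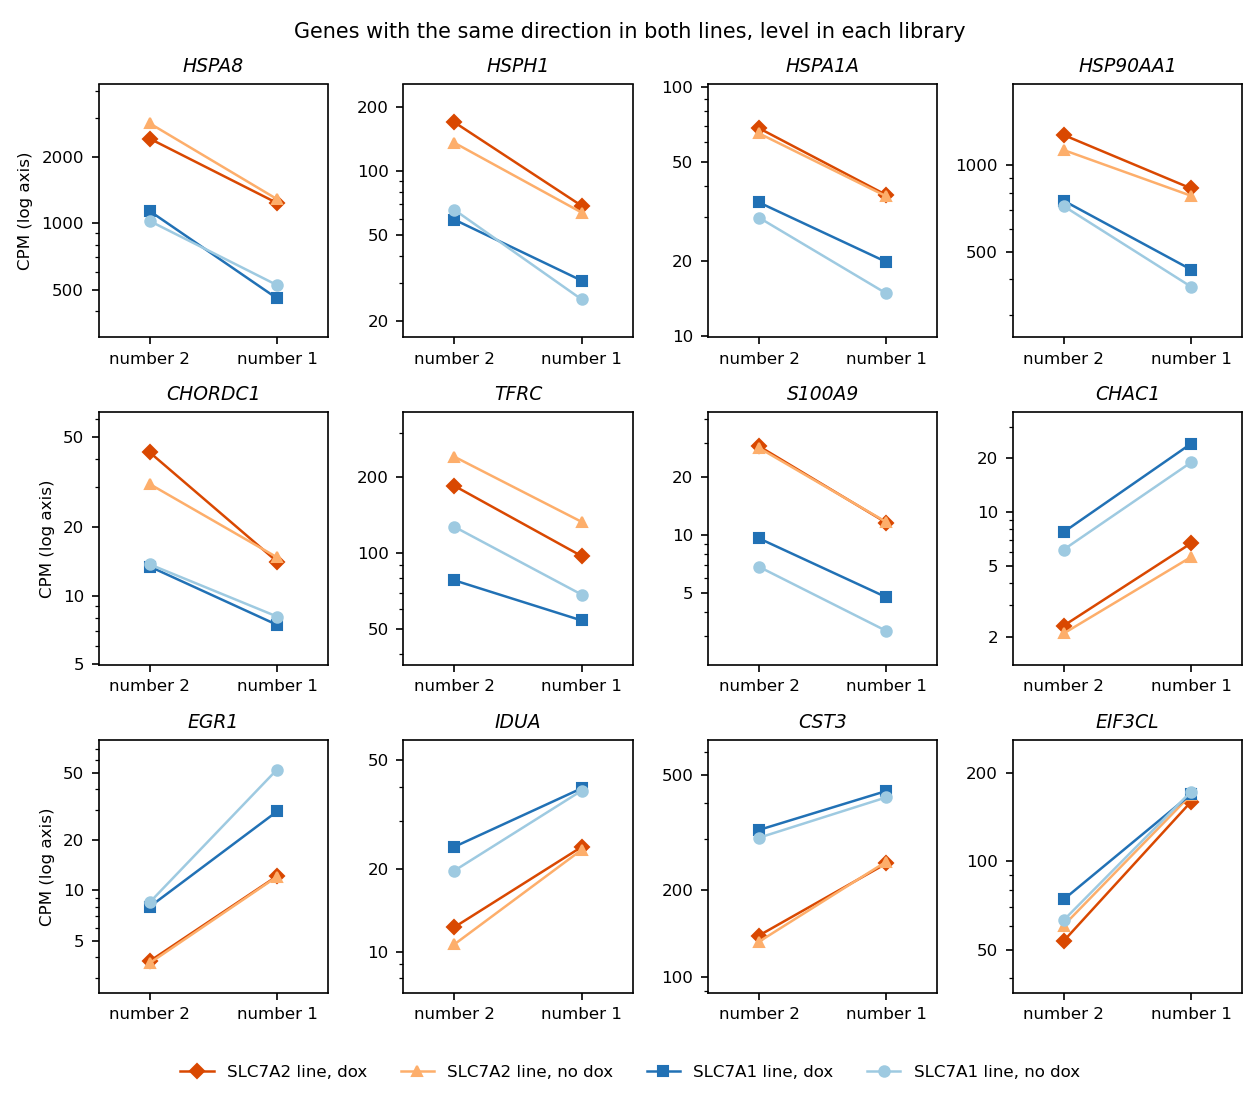
Level of 12 genes in each library, in CPM on a log axis, with a line joining the number 2 and number 1 library of a group. The chaperone genes, TFRC and S100A9 slope down towards number 1 in all 4 groups, and CHAC1, EGR1, IDUA, CST3 and EIF3CL slope up towards number 1. EIF3CL is the gene called over all entries.

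Other programs shared a direction with smaller values. Of 31 proteasome subunits, which form the main protein-degrading complex, 30 stood above 0 (median 0.20) and 25 were higher in number 2 in all 4 groups. Of 41 MYC target and ribosome biogenesis genes tested, 37 stood above 0 (median 0.17) and 3 were called higher in the SLC7A2 line, where 1.04% of all entries were. The NRF2 and antioxidant list had 21 of 28 members above 0 (median 0.16). Cytosolic ribosomal proteins stood below 0 in all 77 members (median -0.23), and 31 were lower in number 2 in all 4 groups, where 15.3% of Entrez genes were. Their median was -0.35 and -0.22 in the SLC7A2 line with and without dox, and 0.04 and -0.32 in the SLC7A1 line, so the SLC7A1 pair with dox did not share it. Over Entrez genes, the difference between numbers went with gene length at a Spearman correlation of 0.27 and 0.11 in the SLC7A2 line with and without dox, and of 0.00 and 0.32 in the SLC7A1 line. Genes are not independent replicates, and the part of length in the ribosomal protein values was not tested. Proliferation programs had medians closer to 0: G1/S and DNA replication genes had a median of 0.09 (30 of 49 above 0) and G2 and mitosis genes 0.07 (32 of 48 above 0). For both lines together edgeR called none of them over all entries or over Entrez genes. DESeq2 called 4 higher and 3 lower in the G1/S list and 2 higher and 1 lower in the G2 list. It called 535 of all 11573 Entrez genes higher and 409 lower. Over Entrez genes in the SLC7A2 line, 10 G1/S genes were higher and 5 lower, and 1 G2 gene was higher and 4 lower. Of all Entrez genes, 7.81% were higher and 9.79% lower there. In the SLC7A1 line 1 G1/S gene was higher and 3 lower, with no G2 call, where 1.96% and 2.65% of all were.

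Among single genes, EGR1, an immediate early transcription factor, had 3.79, 3.69, 7.99 and 8.49 CPM in the number 2 libraries, against 12.2, 12.1, 29.6 and 52.6 CPM in the number 1 libraries. The numbers did not overlap (log2 fold change -1.996 ± 0.19 SE, adjusted p = 0.0834 over all entries, from 9.73e-13 to 0.369 over alternatives). CHAC1, a glutathione-degrading enzyme and ATF4 target, had 2.304, 2.08, 7.71 and 6.15 CPM in the number 2 libraries, against 6.67, 5.59, 24.1 and 18.9 CPM in the number 1 libraries. Its log2 fold change was -1.56 ± 0.14 SE (adjusted p = 0.0657 over all entries, from 1.18e-08 to 0.609 over alternatives). Each line showed it, at -1.48 in the SLC7A2 line and -1.63 in the SLC7A1 line, and the difference between lines was 0.16 ± 0.23 SE. S100A9, a calcium-binding protein of myeloid cells, had 28.9, 28.3, 9.62 and 6.85 CPM in the number 2 libraries, against 11.6, 11.7, 4.76 and 3.19 CPM in the number 1 libraries (log2 fold change 1.19 ± 0.12 SE). TFRC, the transferrin receptor, had a log2 fold change of 0.80 and LRP8, a lipoprotein receptor, one of 0.73. IDUA, a lysosomal iduronidase, stood at -0.95, and complement component C2 at -0.67. All 7 of these genes were called in the fit over Entrez genes and none passed over all entries.

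**Figure D2:**
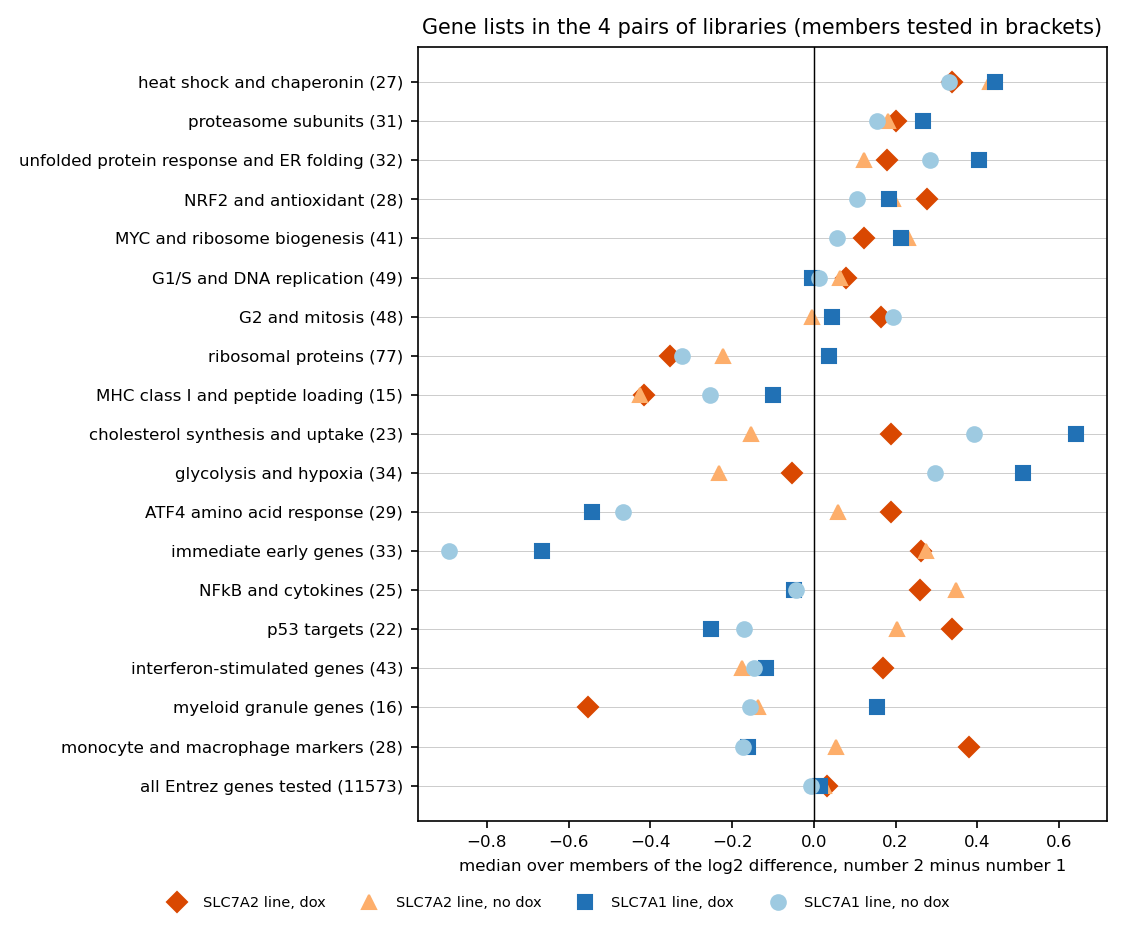
Median log2 difference, number 2 minus number 1, over the members of 18 gene lists and over all Entrez genes, with 1 marker for each of the 4 groups. The heat shock list lies between 0.33 and 0.44 in all 4 groups, while the ATF4 and immediate early lists lie above 0 in the SLC7A2 line and below 0 in the SLC7A1 line.

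The lines shared a minority of their calls, and for 9 named genes the difference between numbers itself differed between lines. Within a line, the differences of the pair with dox and of the pair without dox went together among well-expressed genes: over the 4937 Entrez genes whose log2 CPM averaged 5 or more, the Pearson correlation of the differences was 0.77 in the SLC7A2 line and 0.70 in the SLC7A1 line. Between the lines it ran from 0.04 to 0.45. Over all 17503 entries, low ones included, it was 0.31 in the SLC7A2 line and 0.20 in the SLC7A1 line, and -0.02 to 0.15 between the lines. These correlations are across genes, which are not independent replicates, and describe these libraries. The fit over Entrez genes called 2037 genes in the SLC7A2 line and 534 in the SLC7A1 line, of which 164 were shared, 8.05% of the SLC7A2 calls and 30.7% of the SLC7A1 calls. Among all 11573 Entrez genes, 7.81% were called higher and 9.79% lower in the SLC7A2 line, and 1.96% and 2.65% in the SLC7A1 line. Of the 164, 108 had the same direction (51 higher and 57 lower in number 2) and 56 had opposite directions. The opposite genes were mostly higher in number 2 of the SLC7A2 line and lower in number 2 of the SLC7A1 line (43 of 56). Whether the difference between numbers varied with dox was tested too, and 0 entries were called (0%), with 259 entries at an unadjusted p below 0.05 and 6 calls by DESeq2.

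**Figure D3:**
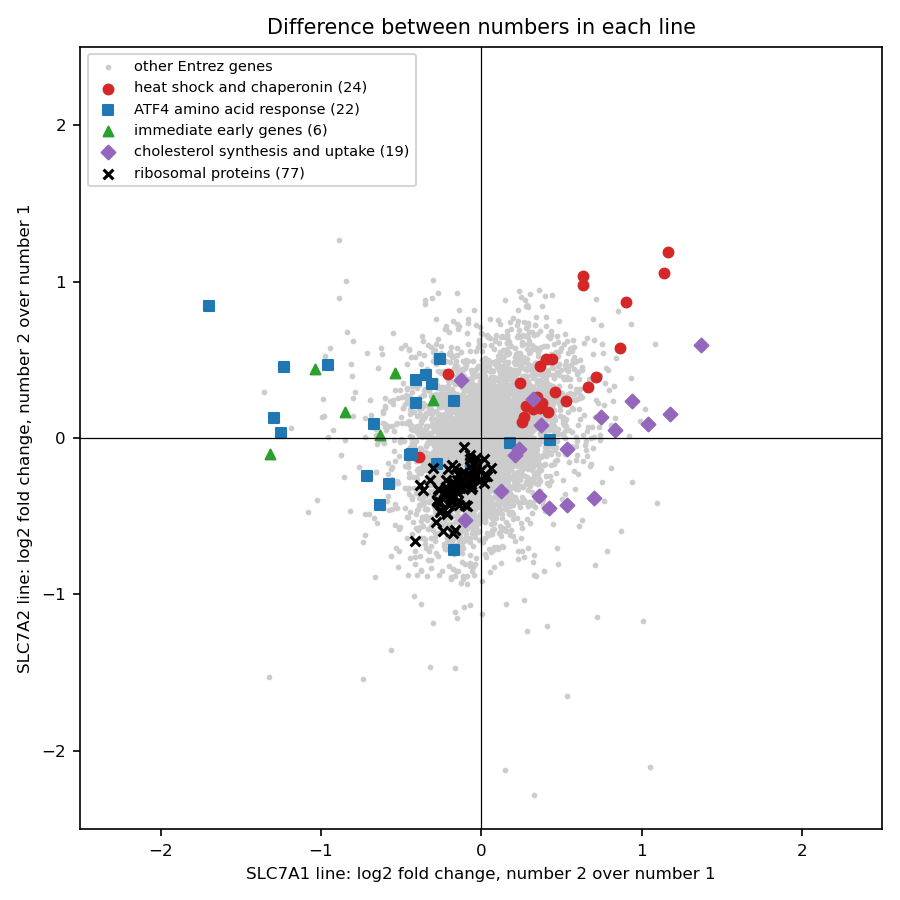
Log2 fold change of number 2 over number 1 in the SLC7A2 line (vertical) and the SLC7A1 line (horizontal), for 4937 Entrez genes, with members of 5 lists marked. Heat shock genes mostly lie above 0 on both axes. Most ATF4 genes lie left of 0 and most sterol genes right of 0 on the horizontal axis, and ribosomal proteins lie below 0 on the vertical axis.

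The test of the difference between lines called 7 entries higher in the SLC7A2 line (0.04% of entries) and 6 lower (0.0343%), of which 9 named genes are described here, with adjusted p of 0.0466 to 0.0489. ATF5, an ATF4-induced transcription factor, had the highest value among the 9 (log2 difference 2.54 ± 0.13 SE). MIDN, a proteasome-linked degradation factor (2.44), FCER1G, the common Fc receptor gamma chain (2.15), CCND3, a G1 cyclin (1.85), CEBPB, a myeloid and stress transcription factor (1.68), PLEKHO2 (1.65) and MAT2A, which makes S-adenosylmethionine (1.51), followed. IRF8 (-2.27) and GLUL, the glutamine synthetase (-2.17), went the other way. CCND3 had 260, 227, 123 and 83.4 CPM in the number 2 libraries, against 125, 117, 224 and 147 CPM in the number 1 libraries, higher in number 2 of the SLC7A2 line and lower in number 2 of the SLC7A1 line. GLUL was the reverse, at 376, 507, 1254 and 1667 CPM in the number 2 libraries, against 825, 1166, 542 and 955 CPM in the number 1 libraries. Over Entrez genes alone the test called 318 genes higher (2.75%) and 286 lower (2.47%). All 9 of these genes lost their call when any 1 of the 4 SLC7A2 libraries was left out, with adjusted p of 0.0569 to 0.111.

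Number 2 libraries of the SLC7A2 line had lower IRF8, CD74 and granule protease genes, and higher CCL2, MMP9, HMOX1 and chaperone genes, than its number 1 libraries. Calls were 182 higher (1.04% of entries) and 391 lower (2.23%), 161 of them XLOC loci, by edgeR's quasi-likelihood test with 2 residual degrees of freedom. Over Entrez genes alone they were 904 higher (7.81%) and 1133 lower (9.79%), and DESeq2 called 1223 higher and 1539 lower. On the deposited TPM scale limma called 821 higher and 470 lower, so 63.6% of its calls were higher, against 31.8% in the main edgeR fit. On counts the share was also 44.3% by DESeq2 and 44.4% over Entrez genes alone. Limma and edgeR differ here in method as well as scale. Without any 1 of the 4 SLC7A2 libraries edgeR made 0 calls, with 2630 to 4121 entries at an unadjusted p below 0.05. Without any 1 SLC7A1 library it made 992 to 1144. The SLC7A2-Flag level given above moved with the number in both pairs of this line, as did the fibroblast marker sum in the pair without dox, and their part in these values was not tested.

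IRF8, the monocyte lineage factor, had 13 and 11.2 CPM in the number 2 libraries of the SLC7A2 line with and without dox, against 50.05 and 55.1 CPM in its number 1 libraries. It fell in number 2 (log2 fold change -2.12 ± 0.13 SE, adjusted p = 0.0361, edgeR), whereas in the SLC7A1 line it had 51.4 and 64.3 CPM in number 2, against 43.7 and 61.6 CPM in number 1. CD74, the MHC class II invariant chain, had 25.1 and 22.6 CPM in number 2 of the SLC7A2 line, against 67.5 and 64.3 CPM in number 1 (log2 fold change -1.47 ± 0.09 SE). In the SLC7A2 line 2.23% of all entries fell and 1.04% rose. Of 16 myeloid granule genes tested, 4 fell and none rose: CFD (complement factor D, -1.54), ELANE (neutrophil elastase, -1.47), PRTN3 (proteinase 3, -1.24) and AZU1 (azurocidin, -1.11). ELANE had 268 and 394 CPM in number 2 of the SLC7A2 line, against 886 and 921 CPM in number 1. The granule list median was -0.55 in the SLC7A2 pair with dox and -0.14 in the pair without dox, against 0.15 and -0.16 in the SLC7A1 line. CSF3R, the G-CSF receptor (-0.85), PPARG, a lipid-sensing nuclear receptor (-1.16), and IGLL1, a surrogate light chain gene (-2.28), also fell. CST3, the protease inhibitor cystatin C, fell in this line (-0.87) and had a value of -0.46 in the SLC7A1 line.

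MHC class I and antigen loading genes, which present peptides to T cells, had 4 of 15 members lower in number 2 of the SLC7A2 line and none higher. Among them were HLA-B (-0.65), HLA-C (-0.45) and the loading factor TAPBP (-0.65), and the HLA genes are near-identical in part. HLA-B had 549 and 581 CPM in number 2 of the SLC7A2 line, against 869 and 904 CPM in number 1. Of all entries, 2.23% were lower in that line. The class I list had a median of -0.42 in the SLC7A2 line and -0.13 in the SLC7A1 line, where 11 of 15 members stood below 0. Between the lines edgeR called no member over all entries or over Entrez genes, and DESeq2 called 3 lower in the SLC7A2 line. Of all 11573 Entrez genes, DESeq2 called 531 lower between the lines. Of 37 lysosome and autophagy genes tested, 4 fell over all entries, among them GUSB (-0.65), GRN (-0.59) and CTSH (-0.69), all of lysosomes. The list median was 0.12, with 23 members above 0. Over Entrez genes 3 were higher and 8 lower, and DESeq2 called 6 higher and 10 lower in the SLC7A2 line. Over all Entrez genes 7.81% were higher and 9.79% lower in that line. DESeq2 called 1105 of all 11573 Entrez genes higher and 1142 lower in it. Of the ribosomal proteins 4 fell in this line, among them RPLP1 (-0.66), RPL15 (-0.61) and RPLP0 (-0.54).

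Among the monocyte and macrophage markers 3 of 28 rose and 1 fell in number 2 of the SLC7A2 line, and 2 of 25 NFkB targets and cytokines rose. In that line 1.04% of all entries rose and 2.23% fell, and over Entrez genes alone 7.81% rose and 9.79% fell. CCL2, a monocyte chemokine, had 40.2 and 58.8 CPM in number 2, against 7.60 and 10.2 CPM in number 1 (log2 fold change 2.47 ± 0.18 SE, adjusted p = 0.0361, edgeR). MMP1, a collagenase, had 25.9 and 32.5 CPM in number 2, against 1.68 and 1.08 CPM in number 1 (4.39 ± 0.34 SE). SLAMF8, a myeloid surface receptor, had 46.3 and 54.6 CPM in number 2, against 10.8 and 12.6 CPM in number 1 (2.11 ± 0.12 SE). For both lines together SLAMF8 had a log2 fold change of 1.81, without passing (adjusted p = 0.14, edgeR). In the SLC7A2 line the numbers did not overlap for CCL2, MMP1 and SLAMF8, but with so few libraries per line this only describes these genes. MMP9 (a gelatinase, 1.54), FPR2 (a formyl peptide receptor, 1.38), S100A9 and CD83 (a marker of activated antigen-presenting cells, 0.93) rose as well. Of 28 NRF2 and antioxidant genes edgeR called 6 higher and none lower over all entries, and 11 higher and 3 lower over Entrez genes. DESeq2 called 12 of them higher and 5 lower, and 1105 and 1142 of all 11573 Entrez genes. The NRF2 genes higher over all entries included HMOX1 (heme oxygenase, 1.54), OSGIN1 (1.31), NQO1 (a quinone reductase, 0.85) and SRXN1 (sulfiredoxin, 0.71). HMOX1 had 17.7 and 22.1 CPM in number 2, against 8.00 and 5.70 CPM in number 1. Of the heat shock list 11 of 27 members rose and none fell in this line. KRT81, a keratin (2.37), and ACTL8, an actin-like gene (2.40), also rose.

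**Figure D4:**
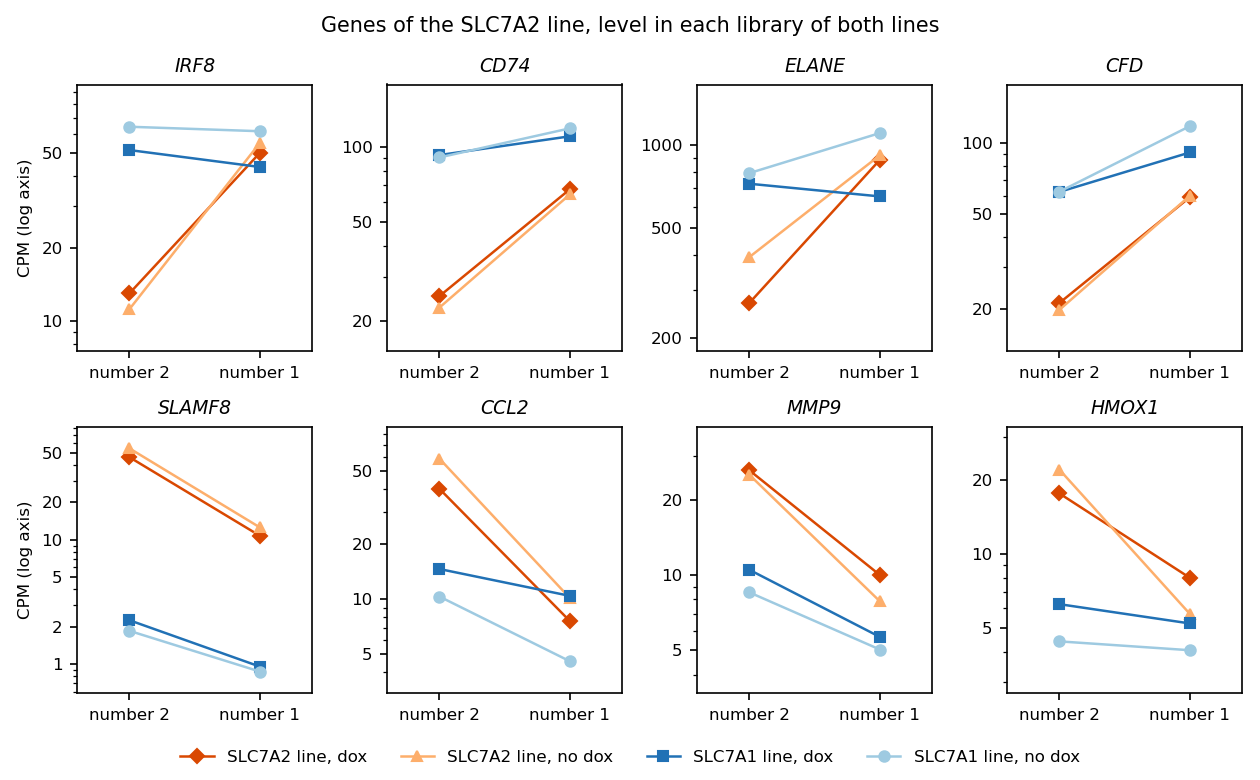
Level of 8 genes in each library, in CPM on a log axis, with a line joining the number 2 and number 1 library of a group. In the SLC7A2 line IRF8, CD74, ELANE and CFD lie lower in number 2, and SLAMF8, CCL2, MMP9 and HMOX1 lie higher, in the pairs with and without dox.

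Number 2 libraries of the SLC7A1 line had lower ATF5, DDIT3, CEBPB and FOSB than its number 1 libraries, with most ATF4 response and immediate early genes below 0 and most sterol and glycolysis genes above 0. Calls were 2 higher (0.0114% of entries), both XLOC loci, and 7 lower (0.04%), with 3457 entries at an unadjusted p below 0.05. Over Entrez genes alone 227 were higher (1.96%) and 307 lower (2.65%), and DESeq2 called 754 higher and 661 lower. Leaving out 1 library at a time gave 8 to 69 calls, with 8 without either SLC7A2 library without dox and 69 without the number 2 library of the SLC7A2 line with dox.

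Of 29 ATF4 response genes tested, 26 stood below 0 in the SLC7A1 line (median -0.45), 4 fell over all entries, and 17 were lower in the fit over Entrez genes. The SLC7A2 line had 16 above 0 (median 0.09), with ATF5 higher and CHAC1 lower over all entries, and 5 higher and 3 lower over Entrez genes. ATF5 had 35.5 and 30.3 CPM in the number 2 libraries of the SLC7A1 line with and without dox, against 119 and 95.1 CPM in its number 1 libraries (log2 fold change -1.70 ± 0.09 SE, adjusted p = 0.0403, edgeR). Libraries of the SLC7A2 line had 64.1 and 53.5 CPM of it in number 2, against 33.5 and 32.0 CPM in number 1, where it rose (0.84 ± 0.09 SE). ATF5 was called in the SLC7A1 line with each of the 8 libraries left out in turn. DDIT3, which encodes CHOP, had 15.1 and 12.2 CPM in number 2 of the SLC7A1 line, against 46.9 and 44.5 CPM in number 1 (-1.75 ± 0.12 SE). CEBPB (-1.23) and PPP1R15A, the GADD34 phosphatase subunit (-1.29), also fell, and PLEKHO2 (-1.36), which is outside the list, fell with them. These 4 genes lost their call, at adjusted p of 0.0512 to 0.0798, when any 1 of the 4 libraries without dox was left out. When the SLC7A1 libraries were fitted alone, an alternative chosen after seeing the data, ATF5 (adjusted p = 0.0659), DDIT3, PPP1R15A and PLEKHO2 (0.0786 each) and CEBPB (0.0947) were not called. TRIB3, a pseudokinase (-0.95), ASNS, the asparagine synthetase (-1.25), and SESN2 (-1.05) did not pass over all entries and were called over Entrez genes. Amino acid transporters had a median of 0.23 in the SLC7A2 line and -0.18 in the SLC7A1 line, and no member was called over all entries. Of the 14, the fit over Entrez genes called 2 higher and 1 lower in the SLC7A2 line, and 1 higher and 3 lower in the SLC7A1 line. Over all Entrez genes 7.81% were higher and 9.79% lower in the SLC7A2 line, and 1.96% and 2.65% in the SLC7A1 line.

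Immediate early genes, which respond to growth factors within minutes, stood below 0 in 28 of 33 members in the SLC7A1 line (median -0.67), with 1 call over all entries and 15 lower over Entrez genes. The SLC7A2 line had 24 above 0 (median 0.36), with 4 higher and 3 lower over Entrez genes. Over all Entrez genes 7.81% were higher and 9.79% lower in the SLC7A2 line, and 2.65% were lower in the SLC7A1 line. The gene called over all entries was FOSB, a FOS family factor, at 1.46 and 0.979 CPM in number 2 of the SLC7A1 line with and without dox, against 30.9 and 27.9 CPM in number 1 (log2 fold change -4.60 ± 0.33 SE, adjusted p = 0.0474, edgeR). In the SLC7A2 line FOSB was at 1.45 CPM or less in all 4 libraries. MIDN, outside the list, had 14.3 and 11.4 CPM in number 2 of the SLC7A1 line, against 50.1 and 45.5 CPM in number 1 (-1.90 ± 0.11 SE, adjusted p = 0.0403). FOSB and MIDN lost their call without the number 1 library of the SLC7A1 line without dox (adjusted p = 0.0745 and 0.0654), and with the SLC7A1 libraries alone (0.0501 and 0.075). IER2 (-1.32), NR4A1 (-1.03) and EGR1 (-2.27) were called over Entrez genes alone.

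Sterol synthesis and uptake genes stood above 0 in 19 of 23 members in the SLC7A1 line (median 0.53). Of these members 12 were higher over Entrez genes (1.96% of all were) and 15 by DESeq2 (665 of all 11573 Entrez genes were). None was called by edgeR over all entries. The SLC7A2 line had a median of -0.07, and SREBF2, a SREBP factor, fell in it (-0.52). SQLE, the squalene epoxidase, had 125 and 157 CPM in number 2 of the SLC7A1 line with and without dox, against 55.8 and 68.4 CPM in number 1 (log2 fold change 1.18 ± 0.13 SE, adjusted p = 0.0669, edgeR). INSIG1, the sterol-sensing brake on SREBP (1.04), MSMO1 (1.73) and HMGCS1 (1.37), both synthesis enzymes, showed the same direction without passing over all entries. Glycolysis and hypoxia genes had a median of 0.34 in the SLC7A1 line (28 of 34 above 0) and of -0.18 in the SLC7A2 line (12 of 34 above 0). LDHA, the lactate dehydrogenase, had 1260 and 1291 CPM in number 2 of the SLC7A1 line, against 699 and 831 CPM in number 1 (0.74 ± 0.09 SE, adjusted p = 0.0693). In the test between lines over Entrez genes 13 of the 34 glycolysis genes and 8 of the 23 sterol genes were lower in the SLC7A2 line (2.47% of all were). Unfolded protein response genes had 27 of 32 members above 0 in the SLC7A1 line (median 0.34), HSPA5 (BiP) among them at 0.83, and a median of 0.14 in the SLC7A2 line. MYB, a progenitor transcription factor, stood at 0.82 in the SLC7A1 line without passing (adjusted p = 0.0588).

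**Figure D5:**
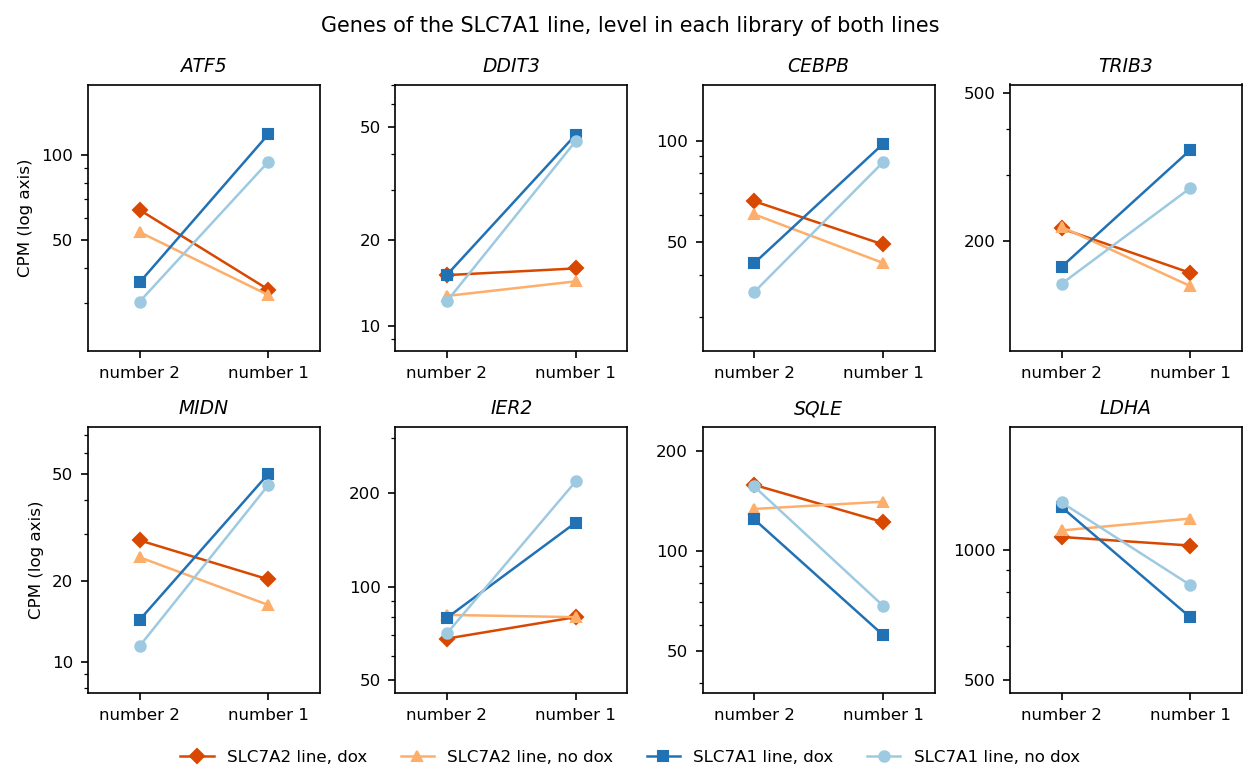
Level of 8 genes in each library, in CPM on a log axis, with a line joining the number 2 and number 1 library of a group. In the SLC7A1 line ATF5, DDIT3, CEBPB, TRIB3, MIDN and IER2 lie lower in number 2 and SQLE and LDHA higher; in the SLC7A2 line ATF5, CEBPB, TRIB3 and MIDN lie higher in number 2.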

How the data were processed

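Poly(A) RNA of 8 libraries, enriched with oligo(dT) per the labels' protocols, was grouped by library titles. Per the file headers, the authors deposited an expected count, FPKM, TPM and gene length for each gene; FPKM values, deposited by the authors, were not used. TPM values, deposited by the authors, gave levels per length and 1 alternative. Tools listed in the submitters' processing notes, without role or order, are RSEM 1.3.1, DESeq2 1.4.5, HISAT and Bowtie2 2.3.4.3, on hg38. The sources used here do not say whether strand was used, which leaves overlapping and antisense genes uncertain. Genes absent from a library's file were set to 0. Entrez numbers were given symbols from RefSeq (15340 of 15386), and XLOC loci (33.9% of entries tested) have none.

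Expected counts were rounded, filtered with filterByExpr (minimum count 10, minimum total 15), scaled by TMM and fitted with edgeR 4.0.16 in R 4.3.3 (glmQLFit, glmQLFTest), with the 4 groups as strata and 1 replicate term, or 1 per line or per dox state. P-values were adjusted by Benjamini-Hochberg at 0.05 over all entries tested. Log2 fold changes are number 2 over number 1, and CPM are TMM-scaled except in summed lists. DESeq2 1.42.0 and limma 3.58.1 on log2(TPM + 1) were alternatives. On data simulated for number 2 against 1, 90% of genes changed by fold 2 and 100% by fold 4 were recovered (100 each of 17221), and in the SLC7A2 line 50% and 95%. Unchanged genes called were 7 and 13. The changed genes were drawn from those with a mean above 10 CPM, and all libraries shared 1 mean per gene apart from the change. The recovery thus does not cover weaker entries or data in which the groups differ, as here. The 41 gene lists and the members named were chosen with earlier results of these data known. Named genes were the extremes among those called, at a mean log2 CPM of at least 3, up to 3 called members of each list (the 2 of highest mean where none was called), SLC7A1, SLC19A1 and the constructs; genes outside that rule, among them MMP1, SLAMF8, KRT81, ACTL8, HSF1, CST3, PPARG, MAT2A, TRIB3, ASNS, SESN2, IER2, NR4A1, SQLE, INSIG1, MSMO1, HMGCS1, LDHA, HSPA5 and TPSAB1, were named after their values were seen. Some genes are not reported here.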

Additional observations from a re-analysis of the deposited data

Results flagged for a closer look

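A library standing apart from the other 3 of its number was looked for in 206 sets of 4 libraries, and 5 such sets were found. That is below the 1 in 20 that the rule flags by chance among 4 like values, so the 5 are no excess. Each set held both lines with and without dox, so that rate is only a rough guide. COL1A1 had 24.5 CPM in the number 2 library of the SLC7A2 line without dox, against 1.97 to 2.87 CPM in the other number 2 libraries. FOSB had 0.979 CPM and MYB 216 CPM in the number 2 library of the SLC7A1 line without dox, against 1.43 to 1.46 CPM and 189 to 192 CPM in the other number 2 libraries. PRTN3 had 376 CPM in the number 1 library of the SLC7A1 line with dox, against 664 to 680 CPM in the other number 1 libraries. LRRK1 had 14.4 CPM in the number 1 library of the SLC7A2 line with dox, against 12.7 to 12.9 CPM in the others.

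The replicate effect differed between the lines, by the tested contrast SLC7A2 minus SLC7A1, for the 12 entries described here. The log2 differences were 2.54 for ATF5, 2.44 for MIDN, 2.15 for FCER1G, 1.85 for CCND3, 1.68 for CEBPB, 1.65 for PLEKHO2, 1.51 for MAT2A, -2.17 for GLUL and -2.27 for IRF8. The unnamed loci XLOC_001947, XLOC_017826 and XLOC_008992 had -4.89, -2.40 and -2.01. XLOC_001947 had 20.02 and 26.8 CPM in number 2 of the SLC7A2 line with and without dox and 79.2 and 106 CPM in number 2 of the SLC7A1 line, against 60.3 and 73.0 CPM and 7.01 and 11.01 CPM in number 1.

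For 8 lists both pairs of 1 line had a median over 0.05 above 0 and both pairs of the other a median over 0.05 below 0, and these differences were not tested. Lists with opposite signs and any median closer to 0 (NFkB, cGAMP, lysosome and fatty acid synthesis) are not counted among them. The mean of the SLC7A2 medians minus that of the SLC7A1 medians was 1.05 for immediate early genes, 0.63 for the ATF4 response, 0.482 for p53 targets, 0.438 for amino acid transporters, 0.385 for monocyte and macrophage markers, -0.251 for the HOXA and MEIS1 program and -0.548 for glycolysis and hypoxia. It was 2.3 for the 6 fibroblast markers tested, whose medians were 0.58 and 3.04 in the SLC7A2 line with and without dox and -0.86 and -0.12 in the SLC7A1 line.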

How the results depend on the processing

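No paired analysis was possible because the replicate number is itself the contrast. With the 4 groups as strata, each number 2 library was already set against the number 1 library of its group. Directions held for all 150 results on single genes under every alternative run, but their calls did not: leaving out 1 library lost a call 296 times and gained one 56 times, and the other alternatives lost 14 and gained 232. The genes were largely named for their values in these same libraries, so held directions were likely in advance and lend no support. Counts of calls, against 1, 573, 9 and 13 as reported, follow in the order both lines together, SLC7A2 line, SLC7A1 line, difference between lines. DESeq2 called 1107, 2762, 1415 and 1330 entries and 6 for dox minus no dox. Entrez genes alone gave 17, 2037, 534 and 604. The stricter filter (minimum count 50) gave 4, 1332, 110 and 179, limma on log2(TPM + 1) gave 5, 1291, 136 and 241, and no filter gave 4 for both lines together, 28 in the SLC7A1 line and 34 for the difference. For both lines together, no strata gave 2 calls, additive strata 14, the libraries with dox alone 2 and those without dox alone 0. In alternatives chosen after seeing the data, each line fitted alone gave 1 call in the SLC7A1 line, DESeq2 on each line alone 905 and 332, and EIF3C and EIF3CL summed 0. Leaving out 1 library gave 0 to 3, 0 to 1144, 8 to 69 and 1 to 84 calls, and 0 to 23 for dox minus no dox; where that leaves 1 library in a stratum, the spread comes from the others. With 2 or 3 residual degrees of freedom and 33.9% of the entries unnamed, counts of calls depended on the filter and on the entries tested. Depth limits entries near the floor of 3 counts (0.163 to 0.173 CPM), which covers counting error only.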

Other observations

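Further values of some lists and genes follow, for both lines together where no line or library is named. Not every remaining list is given. Respiratory chain subunits had 18 of 75 members above 0 in the SLC7A2 line (median -0.11) and 53 of 75 in the SLC7A1 line (median 0.06). The pairs of the SLC7A1 line differed in sign, with medians of 0.17 with dox and -0.08 without dox. Interferon-stimulated genes, which mark antiviral signalling, had a median of -0.11 over 43 members. Of these DESeq2 called 2 lower (409 of all 11573 Entrez genes were), and edgeR none over all entries or over Entrez genes. The 14 genes of cGAMP sensing and transport had a median of 0.08. NFkB targets and cytokines had 21 of 25 members above 0 in the SLC7A2 line (median 0.28) and 12 of 25 in the SLC7A1 line (median -0.11). In the test between lines over Entrez genes 8 were higher (2.75% of all were). MHC class II genes, 4 of which were tested, summed to 35.1, 29.5, 96.8 and 99.8 CPM in the number 2 libraries, against 73.9, 70.4, 122 and 129 CPM in the number 1 libraries. The 14 HOXA and MEIS1 genes had a median of -0.09 in the SLC7A2 line and 0.23 in the SLC7A1 line. TPSAB1, a mast cell tryptase with near-identical copies, had 265 and 258 CPM in number 2 of the SLC7A1 line with and without dox, against 518 and 590 CPM in number 1 (log2 fold change -1.08 ± 0.09 SE, adjusted p = 0.0588, edgeR). SULT1A3 and SULT1A4, near-identical copies, had log2 fold changes of 1.63 and -1.52 in the SLC7A2 line, so the split of reads between them is uncertain.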
